A study of Homo sapiens with 6 samples.

Results

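The transient break clusters described here were 1980 genomic intervals at which DNA double-strand breaks (DSBs) were called in human HCT116 cells after 10 min of camptothecin (CPT) and not after 20 min. They were chosen by the deposited END-seq peaks themselves. Within a library, each reverse-strand peak was joined with the nearest forward-strand peak that overlapped it or lay under 150 bp to its right. A DSB site ran from the start of the reverse peak to the end of the forward peak. Parts of either peak can thus lie outside the site. Sites found in both 10 min libraries were merged, and those that overlapped no site of either 20 min library were kept as transient. Chromosomes 1 to 22 were used, at least 1 Mb away from assembly gaps of 1 Mb or more. The 1980 clusters were 54.8% of the 3611 replicated 10 min sites and belonged to 240734 merged sites of all treated libraries. The share of 54.8% is fixed by the rule and is not a finding.

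HCT116 is a human colorectal carcinoma line, and all samples also held murine pre-B cells as a spike-in. The 6 samples formed 3 groups of 2 biological replicates, which were cells without drug (Ctrl), cells given 10 µM CPT for 10 min (CPT10) and cells given 10 µM CPT for 20 min (CPT20). The sample names read 10 and 20 as µM, whereas the treatment protocol gives them as minutes at 10 µM, and the protocol is followed here. Peak lists of the Ctrl libraries were not analysed here, so no background measured in the same way in untreated cells stands beside these values, and the Ctrl libraries enter only as the input of the peak calling.

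CPT traps DNA topoisomerase I on DNA while 1 strand is cut, and a DSB can follow where a replication or transcription complex meets the trapped enzyme. END-seq ligates an adapter to free DNA ends in agarose plugs and reads away from the break. Where both ends of a DSB are free, reverse-strand reads therefore pile up to the left of the break and forward-strand reads to its right, whereas a single free end leaves a peak on 1 strand.

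The sequences below are the sites of 4 of the strongest clusters and are shown as examples from introns of protein-coding genes and from AT-rich DNA outside genes. Other strong clusters lay in exons, as in NOLC1, or in an AT-rich intron, as in KIAA1217. Each is the plus strand of the GRCh37 (hg19) reference over 200 bases, 5′ to 3′, and not a sequence read from the cells. Capitals mark the bases between the break positions estimated in the 2 CPT10 libraries, each estimate being the midpoint between the reverse and the forward summit. A short run of capitals says only that the 2 midpoints lay close together.
MAP4 intron, chr3:48128436-48128635: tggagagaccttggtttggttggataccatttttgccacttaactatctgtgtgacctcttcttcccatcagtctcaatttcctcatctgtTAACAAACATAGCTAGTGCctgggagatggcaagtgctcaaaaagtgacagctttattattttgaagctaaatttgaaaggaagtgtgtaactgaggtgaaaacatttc
SLC16A1 intron, chr1:113497033-113497232: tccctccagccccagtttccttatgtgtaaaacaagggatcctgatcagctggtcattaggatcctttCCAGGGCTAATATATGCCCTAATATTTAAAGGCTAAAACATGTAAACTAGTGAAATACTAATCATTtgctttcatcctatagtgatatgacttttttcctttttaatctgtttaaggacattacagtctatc
SLC25A3 intron, chr12:98989689-98989888: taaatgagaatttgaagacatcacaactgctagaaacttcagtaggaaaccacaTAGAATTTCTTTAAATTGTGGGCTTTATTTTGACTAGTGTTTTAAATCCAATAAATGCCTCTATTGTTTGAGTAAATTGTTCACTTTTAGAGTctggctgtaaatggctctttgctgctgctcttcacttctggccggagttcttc
outside genes, nearest PAX1, chr20:22063187-22063386: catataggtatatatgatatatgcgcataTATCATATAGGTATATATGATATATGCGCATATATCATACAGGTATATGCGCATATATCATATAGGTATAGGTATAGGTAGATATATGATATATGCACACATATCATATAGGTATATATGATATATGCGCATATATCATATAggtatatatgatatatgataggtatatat

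The estimates of the 2 replicates lay 17 bp apart in MAP4, 64 bp in SLC16A1 and 91 bp in SLC25A3, and 140 bp at the site outside genes nearest PAX1. These midpoints do not locate a break to the base. In MAP4 the reverse and forward summits of CPT10 replicate 1 were at 48128095 and 48128994, and those of replicate 2 stood in the opposite order, at 48128696 and 48128359. The order was also opposite in replicate 1 of SLC16A1 and in replicate 2 of SLC25A3. The window near PAX1 had a GC content of 26%, against 39.5% in MAP4 and 36% in both SLC16A1 and SLC25A3. Over all 1980 clusters the 2 estimates lay a median of 171 bp apart, and 614 clusters had them within 100 bp.

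The strongest transient clusters lay mostly in introns of protein-coding genes, and each of the first 10 still had a peak in a 20 min library. Clusters were ordered by the worse of their 2 ranks within the CPT10 libraries, each by the smaller −log10 q of the paired peaks. Summit heights are given in fragments, recovered from the deposited fold enrichments, which lie on a grid of whole heights in each list. The first cluster lay in an exon at the start of NOLC1, a nucleolar chaperone of small ribonucleoproteins, at chr10:103912059-103912333. Its reverse and forward summits were 30 and 25 fragments in CPT10 replicate 1 and 14 and 13 in CPT10 replicate 2. At 20 min it kept a reverse peak of 21 fragments in replicate 1 and had none in replicate 2.

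The next 2 lay on chromosome 10 in HNRNPF and TIAL1, which encode RNA-binding proteins. In HNRNPF the reverse and forward summits were 22 and 28 fragments in CPT10 replicate 1 and 12 and 12 in replicate 2, and only reverse peaks were left at 20 min, of 8 and 13 fragments. In TIAL1 they were 22 and 43, then 13 and 15, and CPT20 replicate 1 held separate reverse and forward peaks of 8 and 40 fragments that did not form a site. The height of 40 fragments at 20 min is close to the 43 of CPT10 replicate 1, so the TIAL1 cluster met the rule although both strands still had a peak. In KPNB1, which encodes importin beta, the heights at 10 min were 42 and 20, then 11 and 19, and those at 20 min were 17 and 18 in replicate 1, with a forward peak of 22 in replicate 2.

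MAP4, which encodes a microtubule-associated protein, had 27 and 27 fragments, then 11 and 10, at chr3:48128049-48129071. Forward peaks of 17 and 11 fragments remained there at 20 min. NAMPT, the rate-limiting enzyme of NAD salvage, had 18 and 22, then 18 and 12, followed by a forward peak of 16 in CPT20 replicate 1 and a reverse peak of 9 in replicate 2. SNRPA, a U1 small nuclear ribonucleoprotein, had 23 and 28, then 9 and 12, and reverse peaks of 7 and 24 fragments were left at 20 min. In SNRPA the summit of 24 in CPT20 replicate 2 was thus higher than the 9 of CPT10 replicate 2. The other clusters among the first 10 lay in LINC00324, a long non-coding RNA gene, in an intron of KIAA1217 and in an intron of ENSG00000285791 on chromosome 8.

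By the rule, the first 8 clusters within 5 kb downstream of a protein-coding 5′ end were those of NOLC1, MAP4, NAMPT and SNRPA and 4 more. The mitochondrial phosphate carrier gene SLC25A3 had reverse and forward summits of 30 and 18 fragments in CPT10 replicate 1 and 24 and 12 in replicate 2, with reverse peaks of 34 and 23 and a forward peak of 20 in replicate 1 at 20 min. MDM2, the ubiquitin ligase of p53, had 20 and 21, then 11 and 9, and its reverse peaks at 20 min were 19 and 21 fragments, beside a forward peak of 9 in replicate 2. In both genes the reverse peak was the taller one in both 20 min libraries. MCM2, a subunit of the replicative helicase, had 22 and 66, then 10 and 9, and forward peaks of 16 fragments in both 20 min libraries. SLC16A1, a lactate transporter gene, had 20 and 23, then 9 and 9, with a reverse peak of 15 in CPT20 replicate 1 and a forward peak of 13 in replicate 2.

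The 6 clusters that led in protein-coding bodies over 5 kb from any such 5′ end included that of MSL2, whose product is a ubiquitin ligase of a histone acetyltransferase complex. Its summits of 31 and 21, then 9 and 12, were followed by a reverse peak of 15 in CPT20 replicate 1 and a forward peak of 15 in replicate 2. The 4 leading clusters outside genes had reverse summits of 17, 17, 17 and 18 fragments in CPT10 replicate 1. Those nearest ADGRL1 and CSMD3 each kept a peak in CPT20 replicate 2 alone, of 14 forward and 7 reverse fragments. Those nearest SP3 and PAX1 kept peaks in both 20 min libraries.

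**Figure D1:**
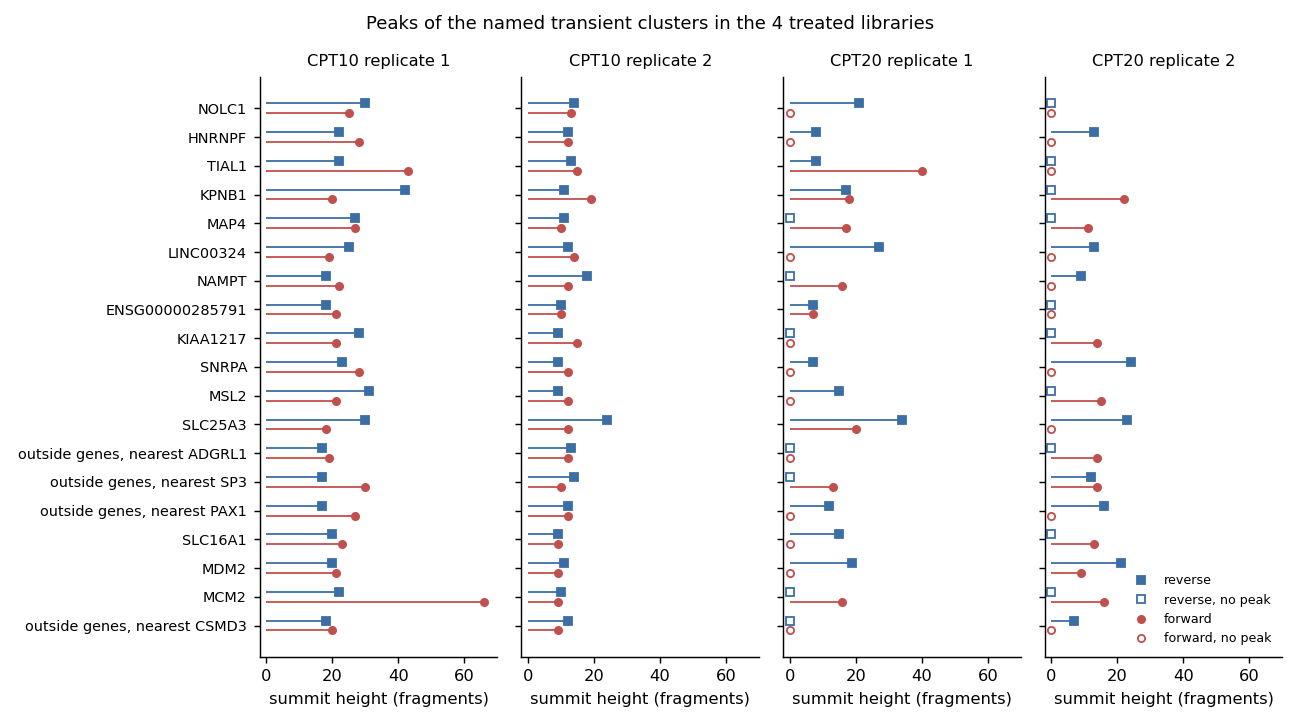
Summit heights in fragments (horizontal axis) of reverse and forward peaks at the 19 named transient clusters (vertical axis, ordered by rank), with 1 panel per library and open symbols where no peak overlapped the cluster. All clusters have filled symbols on both strands in both CPT10 panels, and each keeps at least 1 filled symbol in a CPT20 panel.

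Most members were far weaker than these. The smaller −log10 q of the best pair had a median of 3.90 in CPT10 replicate 1, with a highest value of 31.2, and a median of 2.21 in replicate 2, with a highest value of 21.4. The smaller summit had a median of 9 fragments in replicate 1 and 5 in replicate 2, where the lowest summits listed were 5 and 4 fragments. In replicate 2, 544 of the 1980 clusters sat at that lowest summit on at least 1 strand. In replicate 1, 130 sat at 5 fragments on the reverse strand. The forward list of that library began at 6 fragments, and clusters at that forward limit were not counted. These values chose the members and are given as a description. Persistent clusters, the 831 replicated 10 min sites that overlapped a replicated 20 min site, had medians of 10.9 and 5.50. Sites of 1 CPT10 library alone that were likewise absent at 20 min had 3.17 in replicate 1 and 2.19 in replicate 2, close to the transient clusters.

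The strength of a transient cluster in a CPT10 library was only weakly related to that in the other, with Pearson's r of 0.148 and Spearman's rho of 0.132 across the 1980 clusters, against 0.416 and 0.332 across persistent clusters. Clusters are not independent replicates and share library and depth, so these are descriptions. Clusters had a median width of 595 bp, from 56 to 2302 bp, while persistent clusters had 1178 bp. Between the CPT10 libraries, 3.76% of the sites of replicate 1 and 7.07% of those of replicate 2 overlapped a site of the other. Among sites absent at 20 min, pairs of sites from the 2 replicates whose centres lay under 150 bp apart numbered 1952 per 300 bp of distance, those at 150 to 300 bp 1702, and those at 5 to 10 kb 1252. Pairs were thus densest at close range, and were also frequent at distances at which the sites cannot be the same.

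The order of the 2 summits inside overlapping pairs was no condition of the rule, but it is tied to the width of a site. Sites ran from reverse start to forward end, so pairs with the reverse peak on the left gave wider sites. Wider sites overlap a site of the other library more easily. The order is therefore not independent of the rule, and the shares below are a description. In a DSB with both ends the reverse summit lies left of the forward summit. It did so in 50.8% of transient clusters in CPT10 replicate 1 (95% Wilson interval 48.3 to 53.4, 734 of 1444 pairs) and in 57.4% in replicate 2 (54.7 to 59.9, 784 of 1367). In sites of 1 library alone the share was 45.9% in replicate 1 and 47.0% in replicate 2, and in persistent clusters it was 57.8% and 61.2%. The transient clusters thus stood above the single-library sites in both libraries, by more than the counting error, and reached the persistent share in neither by point value. The classes stood in the same order by median width, with 298 and 282 bp for single-library sites, 595 bp for transient and 1178 bp for persistent clusters. The part of width in these shares was not tested. Their interval overlapped that of persistent clusters in replicate 2 but not in replicate 1. Intervals of shares here and below cover counting error only, because PCR duplicates were kept and neighbouring clusters are not independent.

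The strand peaks left at 20 min are given as a description, because the rule removed every cluster that overlapped a paired site at 20 min and so mainly lets peaks of 1 strand through. Of 1980 clusters, 654 (33.0%, 31.0 to 35.1) overlapped no peak on either strand in either CPT20 library. A forward peak alone was present in 517, a reverse peak alone in 499, and peaks of both strands that formed no site, or that came from different libraries, in 310. Any peak at 20 min was thus found in 1326 clusters (67%). CPT20 replicate 1 had forward peaks in 612 and reverse peaks in 596 clusters, with a median summit of 11 fragments, and CPT20 replicate 2 had 418 and 382, with a median of 9.

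For comparison, 40.8% of the sites found only in CPT10 replicate 1 and 36.9% of those found only in replicate 2 overlapped a 20 min peak. These sites were narrower, with medians of 298 and 282 bp, which lowers their chance of an overlap. Judged by the midpoint base alone, which does not depend on width, 31.0% of transient clusters (29.0 to 33.1) lay under a 20 min peak against 22% and 19.6% of the single-library sites. Around the midpoints, cover by CPT20 replicate 2 rose from a mean of 5.00% at 3 to 5 kb to 7.42% at the midpoint on the forward strand, and from 4.89% to 6.62% on the reverse strand. In CPT20 replicate 1, the deeper library, the forward cover was 10.8% at 3 to 5 kb and 11.8% at the midpoint, and the reverse cover 10.7% and 10.6%, so the midpoint hardly differed from its surroundings there. The highest forward cover lay 200 bp to the right in replicate 1 and 100 bp to the right in replicate 2, and the highest reverse cover 100 and 200 bp to the left, which is the arrangement of the 10 min peaks. In CPT20 replicate 1 these maxima of 13.8% and 12.7% were little above the highest single positions at 3 to 5 kb, 12.8% and 12.6%.

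**Figure D2:**
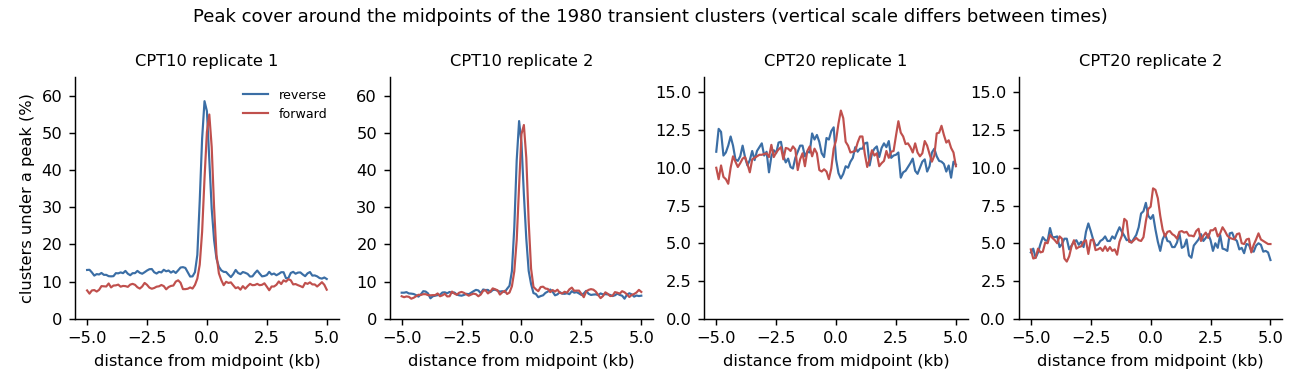
Share of the 1980 transient clusters whose position lies under a peak (vertical axis, percent) against the distance from the cluster midpoint in kb (horizontal axis), for reverse and forward peaks of each library. The CPT10 panels rise above 50% by construction of the clusters, whereas the CPT20 panels, drawn on a finer scale, show a maximum of 13.8% in replicate 1 and 8.64% in replicate 2.

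A site at 20 min was also often near. The closest 20 min site lay under 1 kb away for 443 clusters, and the median distance was 4477.5 bp. At the edge of the rule, 69 transient clusters had a 20 min site less than 100 bp away, and 47 replicated 10 min sites were left out by an overlap of 50 bp or less. The mirrored class is given beside the transient share, although it was compared with more sites. The sites considered numbered 99834 and 53131 in the CPT10 libraries and 83682 and 18081 in the CPT20 libraries. The part of these numbers in the 2 shares was not tested. Of the 2624 replicated 20 min sites, 934 (35.6%) overlapped no 10 min site and are called late. Of all sites of 1 CPT10 library, replicated or not, 91% in replicate 1 and 90.9% in replicate 2 were absent at 20 min. Absence moved with the length and the threshold of the peak lists, and its relation to depth was not tested. The average height per base, a stand-in for depth, was 1.44 fragments in the forward list of CPT10 replicate 1 and 0.734 in that of the second CPT10 library. It was 1.23 in the forward list of CPT20 replicate 1 and 0.864 for the second library of that time, and reverse lists lay close to these. With every list limited to as many peaks as the shortest held, 29.3% of replicated 10 min sites (349 clusters) were absent at 20 min, and with peaks of −log10 q of at least 10 it was 10.6% (17 clusters).

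Most transient clusters lay in introns, far from gene starts. Of the 1980 midpoints, 1407 (71.1%, 69.0 to 73.0) fell in a gene, 1241 in introns and 166 (8.38%) in exons, and 573 fell outside genes. A protein-coding gene held 1119 of them, and 273 lay in a long non-coding RNA gene alone. Within 5 kb of a protein-coding 5′ end lay 283 clusters, or 14.3% (12.8 to 15.9), which compares with 6.24% of the bases considered. It was 24.4% with lists of equal length, 52.9% with −log10 q of at least 10, 7.34% without CPT10 replicate 1 and 9.0% without CPT10 replicate 2, where no replication was required. The share was 8.84% and 6.95% in the sites of 1 CPT10 library, 38.3% in partly shared clusters (those overlapping a 20 min site that was not replicated), 35.9% in the late clusters defined above and 56.2% in persistent clusters.

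The transient share near 5′ ends was lower than the persistent one by 41.9 percentage points, a difference of -41.9 with a 95% Newcombe interval of -45.6 to -38.1, and was lower on 21 of the 21 chromosomes compared. It was higher than that of the sites of CPT10 replicate 1 alone by 5.45 points (3.97 to 7.07) and of replicate 2 alone by 7.34 points (5.85 to 8.97). For 5′ ends the transient share was therefore closer to that of sites seen in 1 library than to the persistent one. For exons the difference from the sites of CPT10 replicate 1 alone was 1.09 points (-0.0689 to 2.40), and for 5 kb around protein-coding 3′ ends it was 0.674 points (-0.532 to 2.04), both within counting error. The strength of the call went with the share. In the third of clusters with the best ranks, 19.1% (16.3 to 22.3) lay near a 5′ end, against 11.8% and 12% in the others. Among clusters with no peak at 20 min the share was 6.27% (4.65 to 8.39), about that of the bases considered, and among those with peaks on both strands it was 27.1% (22.5 to 32.3). The difference from persistent clusters was kept when single libraries were left out. Without a CPT20 library, persistent sites there needed no replication at 20 min. With only the 17 clusters of −log10 q of at least 10, the difference was -3.79 points (-27.6 to 19.2).

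Near 5′ ends the transient clusters lay mostly downstream, as persistent ones did. Of the 422 clusters within 10 kb of the nearest protein-coding 5′ end, 286 (67.8%) lay downstream, against 80.5% of persistent clusters and 58.0% and 56.3% of the single-library sites. The median position of those 422 was 1719 bp downstream, that of persistent clusters 1734 bp. The median distance of all transient clusters from a 5′ end was 49950.5 bp, against 3721 bp for persistent clusters. The genes holding transient clusters were long, with a median of 103371 bp against 30512.5 bp for persistent clusters, and those of the sites of 1 library alone were longer still, with 134529 and 174077 bp.

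**Figure D3:**
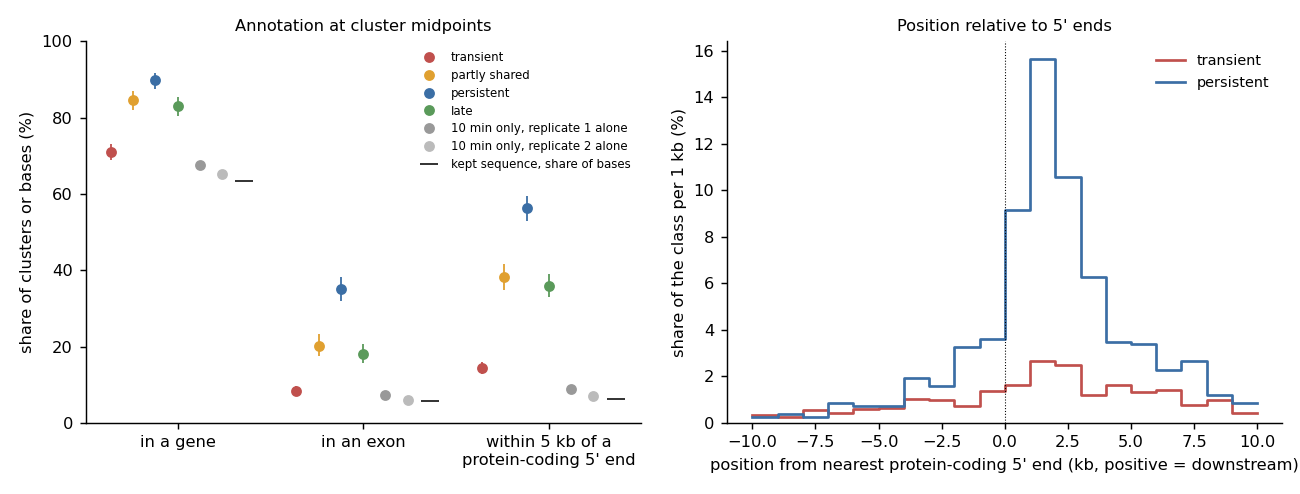
Left, share of cluster midpoints (vertical axis, percent, with 95% Wilson intervals) in a gene, in an exon and within 5 kb of a protein-coding 5′ end, for each class of sites and for the bases considered. Right, share of transient and persistent clusters per 1 kb of position from the nearest protein-coding 5′ end, where persistent clusters peak at 1 to 2 kb downstream and transient clusters show a low, broad rise on the same side.

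The end that was left at 20 min was more often the upstream one near 5′ ends, and not farther away. This comparison was chosen after the values above were seen. It used the 1090 clusters in protein-coding genes of 1 direction only. Of these, 227 lay within 5 kb of a protein-coding 5′ end and 863 farther away. That 5′ end could belong to another gene, and 180 of the 227 lay downstream of the nearest one. The strand peak that reads toward the start of the gene holding the cluster was called the upstream end. Near 5′ ends, where 1 strand alone was left, it was the upstream end in 80 clusters and the downstream end in 42, so the upstream share was 65.6% (56.8 to 73.4). Farther away it was 211 against 225, or 48.4% (43.7 to 53.1).

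Both CPT20 libraries showed it near 5′ ends. In CPT20 replicate 1 the upstream end had a peak in 132 of 227 clusters and the downstream end in 92, and in CPT20 replicate 2 the numbers were 86 and 49. Farther away they were 255 and 275 of 863 in replicate 1 and 166 and 166 in replicate 2. By the taller summit, the same 227 clusters did not lean that way at 10 min beyond counting error. In CPT10 replicate 1 the upstream summit was the taller in 111 and the downstream in 102 (52.1% upstream, 45.4 to 58.7). In CPT10 replicate 2 the counts were 112 against 97 (53.6%, 46.8 to 60.2). By the same measure, they were 116 against 63 in CPT20 replicate 1 (64.8%) and 85 against 42 in CPT20 replicate 2 (66.9%). The rule required peaks on both strands at 10 min and removed paired sites at 20 min. The 2 times were thus selected differently, and these values cannot show a change between them. Sites of 1 CPT10 library alone near 5′ ends also kept the upstream end more often, in 53.6% (51.7 to 55.5) and 56.6% (53.5 to 59.6), and the difference from transient clusters was not tested. NOLC1, MAP4, SNRPA, SLC25A3 and MDM2 are named clusters of this kind, in which the taller peak at 20 min was on the upstream end. MCM2 kept the downstream end, and NAMPT and SLC16A1 kept a different end in each library.

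**Figure D4:**
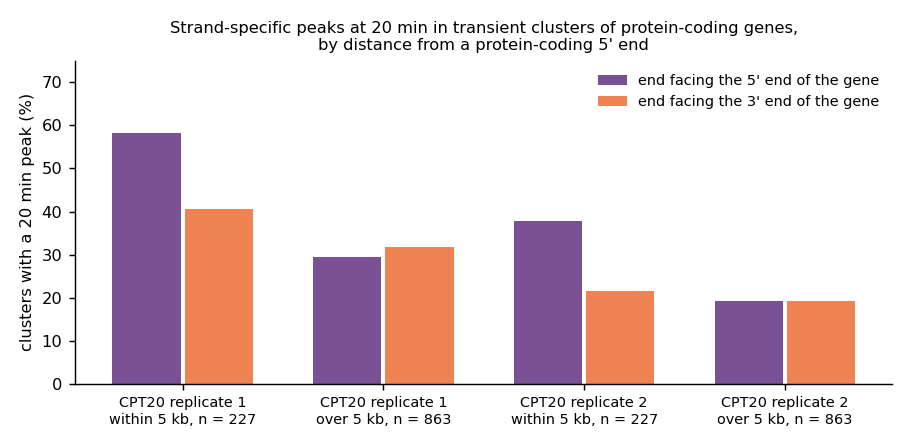
Share of transient clusters in protein-coding genes (vertical axis, percent) with a 20 min peak on the end facing the 5′ end and on the end facing the 3′ end of the gene, for each CPT20 library and for clusters within or over 5 kb from a protein-coding 5′ end. Within 5 kb the upstream bar is the higher in both libraries (58.1% against 40.5% and 37.9% against 21.6%), and over 5 kb the bars are alike.

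The share of replicated sites that were transient varied widely between gene lists, which are counted here and were not tested. Each count below gives how many of its replicated 10 min sites were transient, beside 1119 of 2385 (46.9%) over all protein-coding genes, and a site in overlapping genes counts for each. The lists were drawn up with earlier results of these data known. In the cytoplasmic ribosomal protein genes, 6 of 96 sites were transient and 72 persistent, the 6 lying in RPL14, RPL22, RPL34, RPS20 and RPS24. Of the replicated sites in immediate-early and AP-1 genes, which respond within minutes to growth signals, 1 of 25 was transient (in EGR3) and 20 were persistent. Other housekeeping and translation genes had 1 of 45 (in HNRNPA2B1), and the replication-dependent histone genes had 0 of 8, all 8 being persistent. Most sites in these 4 lists were persistent.

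By share, long genes showed the reverse. In protein-coding genes of 300 kb or more, 224 of 305 sites (73.4%) were transient, in those of 30 to 300 kb 726 of 1388 (52.3%), and in those under 30 kb 191 of 774 (24.7%). Per Mb of gene body, transient clusters were sparsest in the longest genes, with 0.514, 1.02 and 1.67 in the same order. Persistent clusters were sparser still in the longest genes, with 0.0688, 0.443 and 3.06 per Mb. Genes of common fragile sites, which break under replication stress, had 5 of 8 in GPC5, LRP1B, NAALADL2 and WWOX. Neuronal cell surface and synapse genes had 6 of 8, in CDH12, CDH13, KCNIP4, LRRTM4 and ROBO2. Shares of so few sites carry no comparison. Per Mb of gene body, these 2 lists held 0.203 and 0.258 transient clusters, against 0.902 over all protein-coding genes. Zinc finger genes named ZNF had 20 of 27 and olfactory receptor genes 3 of 4, at 1.01 and 1.21 per Mb. Epithelial and intestinal genes had 1 of 7, in CDH17.

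Genes of the drug's target and of DNA repair held few replicated sites. The topoisomerase and TDP genes, the latter coding for enzymes that cut topoisomerase from DNA ends, had 3 of 3, in TOP1, TOP1MT and TDP1. The end-joining and resection genes had 2 of 3, in PRKDC and XRCC6. With counts this small the shares carry no comparison.

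Transient clusters rarely shared a gene. They lay in 999 protein-coding genes, and 859 of these held a single cluster. The most clusters were in CNBD1, a cyclic nucleotide-binding gene on chromosome 8 (chr8:87878643-88627447), where all 10 replicated 10 min sites were transient, and in CSMD3 on the same chromosome, with 6 of 6. On chromosome 10, TCF7L2, the transcription factor of the Wnt pathway, had 5 of 11 and VTI1A, a vesicle SNARE gene beside it, had 4 of 17. SLC39A11, a zinc transporter gene on chromosome 17, had 5 of 8, and PRKACB, a catalytic subunit of protein kinase A on chromosome 1, had 4 of 6. PRKACB and VTI1A were tied with STK3, which had 4 of 5, and with RALYL, RIMS2, HPSE2 and ATRNL1, which each had 4 of 4. The median distance between neighbouring transient clusters was 257123 bp, and 127 of 1980 had another within 10 kb, whereas 409 of 831 persistent clusters did.

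The clusters were concentrated on parts of 3 chromosomes, and the densities here are means over whole chromosomes. Chromosome 8 held 340 of them (2.41 per Mb), chromosome 17 held 168 (2.21 per Mb) and chromosome 10 held 159 (1.23 per Mb). Together these were 33.7% of the transient clusters on 13.1% of the sequence considered, and the other 19 chromosomes had 0.381 to 0.781 per Mb. Sites of single libraries were also frequent there, since the 3 chromosomes carried 21.4% of the sites of CPT10 replicate 1 and 21.8% of replicate 2, as well as 24.2% of persistent and 30.1% of late clusters. Of the replicated 10 min sites, 58.4% were absent at 20 min there and 53.2% on the other chromosomes. The part of the site density of the libraries in the density of transient clusters was not tested.

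The clusters were also uneven at a finer scale. Over 514 bins of 5 Mb, the density of transient clusters followed the site density of CPT10 replicate 1 with r = 0.823 and rho = 0.482 and that of replicate 2 with r = 0.868 and rho = 0.383, pooled over all chromosomes. Transient clusters are overlaps of sites of these 2 libraries, so their counts must follow the site counts and the relation is no finding. The 32 bins with at least 10 clusters held 589 of them, and the fullest, chr10:100000001-105000000, held 30. On chromosome 8, bins from 65000001 on held 8 to 28 clusters and those before it 1 to 6. On chromosome 17, bins from 45000001 on held 10 to 26 and those before it 2 to 5. On chromosome 10, bins from 100000001 to 130000000 held 12 to 30 and the others 0 to 5. Leaving out chromosomes 8, 10 and 17, 16.4% (14.5 to 18.5) of the remaining 1313 clusters lay near a protein-coding 5′ end, against 10.2% (8.12 to 12.7) of the 667 on them.

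**Figure D5:**
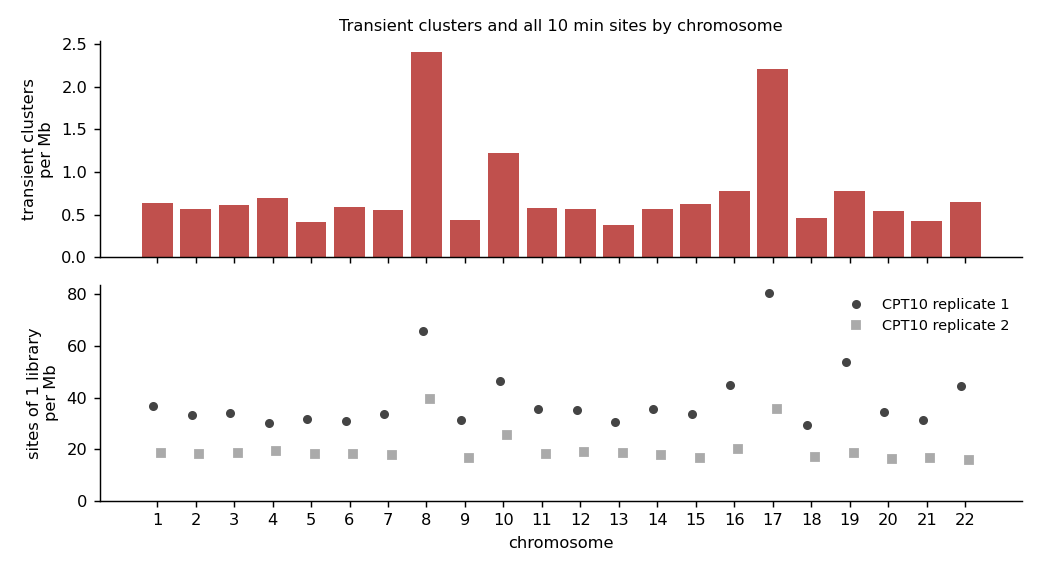
Transient clusters per Mb of sequence considered (upper panel) and sites of each CPT10 library per Mb (lower panel) for chromosomes 1 to 22. Chromosomes 8, 10 and 17 stand above the others in the upper panel, with 2.41, 1.23 and 2.21 transient clusters per Mb, and in CPT10 replicate 2, whereas in CPT10 replicate 1 chromosome 19 lies above chromosome 10.

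Transient clusters lay in AT-rich DNA. Their median GC content was 38.0% over the cluster, and 37.0% in windows of 300 bp around the midpoint, against 40.0% in all 300 bp tiles of the sequence considered and 41.7% for persistent clusters. The sites of CPT10 replicate 1 alone had 41.0% and those of replicate 2 alone 37.0%, so the 2 libraries themselves differed by more than the transient clusters did from the tiles. Away from 5′ ends the transient median was 36.3%, and within 5 kb of them 41.7%.

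Very AT-rich windows were much more frequent than in the genome. This limit was chosen after the sequences above were seen. A GC content under 20% was found in 40 of the 1980 windows (2.02%, 1.49 to 2.74) and in 0.121% of all tiles. It was found in 0.155% of the sites of CPT10 replicate 1 alone and 1.03% of those of replicate 2 alone, in 1.44% (0.828 to 2.51) of persistent, 4.63% (3.37 to 6.31) of partly shared and 0.428% of late clusters. The 40 clusters lay on 17 chromosomes, 19 of them in genes and 1 within 5 kb of a protein-coding 5′ end, and 26 (65%) had a peak at 20 min, as the other members did (67%). Such windows are thus found in replicated 10 min sites of each kind and are no mark of the transient ones. The KIAA1217 cluster had 16.0% GC over its length, whereas the printed window near PAX1, with 26%, lies above the limit.

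Sequence motifs were searched in the same windows on both strands. GGGCGG, the core of the binding site of SP1, was present in 3.89% of transient clusters, 4.26% of tiles and 11.3% of persistent clusters. TGACTCA, the AP-1 site, was present in 4.55%, and in 4.62% of tiles and 6.38% of persistent clusters. Runs of 12 A or of 12 T were found in 3.23% of transient clusters against 6.76% of tiles, 6 or more CA or TG units in 0.606% against 1.44%, and 4 runs of GGG with loops of 1 to 7 bases, a pattern of G-quadruplexes, in 2.27% against 3.22%. The repeats and runs were thus rarer than in tiles, and this was not particular to transient clusters. In sites of CPT10 replicate 1 alone and replicate 2 alone, runs of A or T were found in 4.34% and 3.04%. The CA or TG units were found there in 1.15% and 0.990%, and the GGG pattern in 3.18% and 1.85%. Persistent clusters had 4.33%, 0.722% and, above the tiles, 3.37% for the same 3 motifs. Reads of low mapping quality had been removed before peak calling, and its part in these shares was not tested.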

How the data were processed

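END-seq was done on 6 samples, and the 8 deposited peak lists of the 4 CPT libraries were used, 1 per library and strand. The authors trimmed reads with Trim Galore, aligned them to hg19 with Bowtie2, kept proper pairs of good mapping quality with SAMtools, kept duplicates, and called peaks per replicate and strand with MACS2 against the control, without local background, at q = 0.05; replicates were not pooled. The deposited columns hold an integer score, a fold enrichment, −log10 p, −log10 q and a summit offset. The deposited −log10 p values entered only an alternative. Total read depth is not given by these files, so the average height behind each fold enrichment stands for it. The study's blacklist filter and read-count model were not repeated.

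Sites were built with bedtools 2.31.1 and Python 3.11.15 and annotated with GENCODE release 44 mapped to GRCh37. Differences between shares have Newcombe and shares Wilson 95% intervals (scipy 1.17.1); clusters are not replicates of a condition, and no test across libraries was made, since each group has 2. The steps were tested on simulated data. Named clusters were the first 10 by rank, the first 8 downstream of a 5′ end within 5 kb, the first 6 in gene bodies farther away, the first 4 outside genes, and 6 genes with the most clusters, the last of which were tied with others. The members and lists were chosen with earlier results of these data known. Some site sequences are not reported here.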

Additional observations from a re-analysis of the deposited data

How the results depend on the processing

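A value was called moved if it lay beyond the counting interval of the main value or, for counts, differed by over 1.5 times. For the summit order, the interval was the mean of the 2 CPT10 libraries plus or minus their standard deviation. Of 93 alternative values, 36 stayed the same, 56 moved, 1 difference lost its side of 0, and 0 reversed. The cause was not tested. With only peaks of −log10 q of at least 3, 491 clusters remained by count, 33.7% of replicated 10 min sites were absent, 77.6% of clusters lay in genes, 21.2% near 5′ ends, the median GC content was 37.0% and 75.8% had a peak at 20 min. With −log10 q of at least 10 these were 17 clusters, 10.6%, 94.1% in genes, 52.9% near 5′ ends and 94.1% with a peak, the reverse summit lay left in 72.1%, and the difference from persistent clusters was -3.79 points. With lists of equal length they were 349, 29.3%, 77.7%, 24.4% and 79.7% with a peak. With overlapping peak pairs only they were 1095, 50.8%, 73.5% and 17.1%. An overlap of at least 50% gave 16.9% near 5′ ends, and no distance limit from gaps gave 52.9% absent. With 20 min sites required in both libraries 77.0% were absent, 75% lay in genes, 21.2% near 5′ ends, and GC was 38.8%. Requiring no strand-specific peak at 20 min gave 654 clusters, 18.1%, 62.5% in genes and 6.27% near 5′ ends. Protein-coding genes alone held 56.5%, a window of 1 kb held 2.98%, and windows of 300 bp had 37.0% GC.

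Leaving out 1 library at a time gave 2176 to 90850 clusters, 60.3% to 91.0% absent, 65.6% to 74.6% in genes, 7.34% to 20.2% near 5′ ends, a GC content of 37.3% to 41.3%, and a difference from persistent clusters of -50.1 to -31.1 points; without a CPT10 library no replication was required. With the replicate block, in which libraries of the same number were compared and averaged, there were 71496.5 clusters, 94.1% absent, 67.1% in genes, 8.91% near 5′ ends, a GC content of 39.4%, the reverse summit left in 46.9%, and a difference of -29.1 points. Overlaps between libraries of different times were scaled by their site numbers. The product of the 2 same-numbered overlaps was 1.73 times that of the 2 differently numbered ones. With 2 pairs there is no error estimate, and the labels do not say that the numbers pair samples. The lowest summits listed were 5 fragments in both CPT20 libraries, so a lower peak at 20 min would not be seen.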
